A study of Homo sapiens with 8 samples.

Results

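Ectoderm and mesoderm cells, both differentiated in culture from H1, a human embryonic stem cell line, were compared directly with each other, without undifferentiated cells as a common baseline. The comparison rested on 4 of the 8 long-read RNA libraries of the study, chosen by their labelled cell type, with 2 repeats for each layer. Undifferentiated cells and endoderm cells made up the other 4 libraries, which entered the filter on low counts, the scaling and the estimate of the spread between repeats. The ectoderm cultures received 2 µM A83-01, an inhibitor of the TGF-beta and activin receptors, 2 µM PNU-74654, an inhibitor of beta-catenin signalling, and 2 µM Dorsomorphin, an inhibitor of BMP receptors, with 15% KOSR. The mesoderm cultures received 100 ng/ml VEGF, 100 ng/ml BMP4 and 10 ng/ml bFGF with 0.5% FBS, and 100 ng/ml Activin A during the opening 24 h. Both were collected at day 5. All libraries came from this 1 cell line, the labels do not say whether the repeats were separate cultures, and p-values therefore measure only the spread between these libraries, which may be technical.

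As background, the epiblast takes a neural fate when BMP and activin signals are blocked, and the early neural plate at its front end is marked by paired-box, SOX and homeobox transcription factors. BMP signals together with activin and FGF move pluripotent cells to mesoderm, while BMP also drives the formation of amnion and related extraembryonic tissue, so that several transcription factors, HAND1 and TBX3 among them, are shared by these fates. The 2 media differed in what they did to these pathways. One held BMP4, with Activin A during the opening 24 h only, and the other held inhibitors of the receptors for both. The state of the pathways at collection was not measured.

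The deposited counts of the 4 libraries summed to 1180888 and 967206 in ectoderm and to 531106 and 503840 in mesoderm. A floor of 3 counts corresponded to between 2.54 and 5.95 CPM, the count scaled to a common library total. Reads were assigned to longer transcripts in the ectoderm libraries, with means of 4406 and 4650 nt, than in the mesoderm libraries, with 3765 and 3840 nt. Repeats had a Pearson correlation of log2 CPM across genes of 0.97 in ectoderm and 0.94 in mesoderm, while pairs from different layers had between 0.60 and 0.64. Genes are not independent replicates, so these values describe the libraries. Mitochondrial transcripts took between 1.06% and 1.32% of the counts, and none of the 15 mitochondrial genes differed at an edgeR adjusted p under 0.05.

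Of 10525 genes tested with edgeR's quasi-likelihood test, 3767 (35.8%) had a Benjamini-Hochberg adjusted p under 0.05. Ectoderm had the higher level in 1927 of them (18.3% of the genes tested) and mesoderm in 1840 (17.5%). The fitted difference was at least 2-fold in 3467 of the called genes. It was at least 16-fold in 164 genes higher in ectoderm and in 211 higher in mesoderm. CPM values did not overlap between the layers for 75.2% of all genes tested, so that non-overlap alone singles out few genes. The balance of directions differed between settings: with a trend on transcript length removed, 1093 genes were called higher in ectoderm and 1937 higher in mesoderm, and with a trend on GC content removed, 1109 and 1845. These corrections moved the median log2 fold change of all genes from 0.02 to -0.16 and -0.17.

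**Figure D1:**
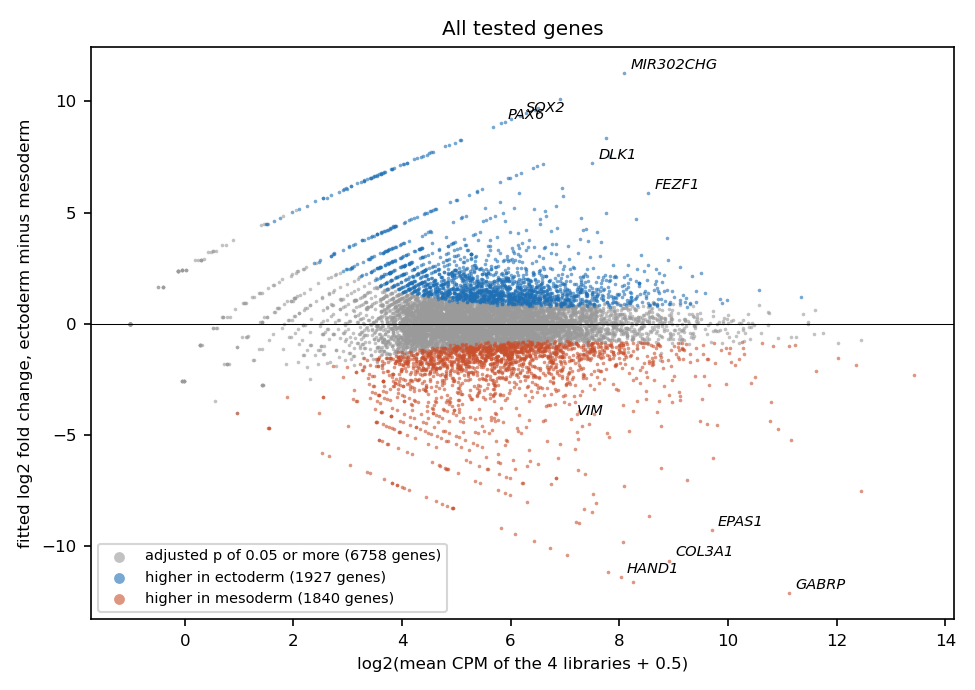
Fitted log2 fold change (ectoderm minus mesoderm, vertical) of the 10525 tested genes against log2 of their mean CPM in the 4 libraries plus 0.5 (horizontal), 1 point a gene. Blue points are the 1927 genes called higher in ectoderm and orange points the 1840 called higher in mesoderm, and named genes lie at the edges of the cloud.

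With the lower group set to at least 3 pooled counts, the gene with the largest fold toward ectoderm was MIR302CHG, the host transcript of the miR-302/367 cluster (chr4:112646719-112648740, minus strand, GRCh38), whose miRNAs are abundant in pluripotent cells and restrain differentiation. The hairpins of 5 miRNA genes lie inside its span in RefSeq (GRCh38.p14). Mature miRNAs were not measured here, but their 3p arms show what the host carries, and 4 of the 5 share 1 seed. Bases 2 to 8, the seed, are in capitals.
miR-302a-3p: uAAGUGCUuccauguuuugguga
miR-302b-3p: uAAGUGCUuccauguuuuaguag
miR-302c-3p: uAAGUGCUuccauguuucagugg
miR-302d-3p: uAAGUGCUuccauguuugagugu
miR-367-3p: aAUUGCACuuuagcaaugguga
MIR302CHG had 720 and 459 counts in the ectoderm repeats and 0 in both mesoderm repeats, at least 189-fold higher in ectoderm against a floor of 3 counts pooled over the mesoderm libraries (edgeR adjusted p = 1.33e-07). Its counts were spread over 5 assembled transcripts, none of which had a count in mesoderm. In 3 of these the hairpins lie in introns, and in 1 they lie in an exon. The undifferentiated libraries, which were not compared here, had 551 and 420 counts of it and the endoderm libraries 363 and 307, so that the mesoderm libraries were the 2 of the 8 at 0.

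The 4 genes used as markers of the layers had CPM that did not overlap between them. They were chosen with earlier results of these data known, and 75.2% of all genes tested did not overlap either, so this separation is no independent evidence. PAX6, a transcription factor of the early neural plate, had 170 and 79 counts in ectoderm and 0 in both mesoderm repeats, at least 39.99-fold higher (edgeR adjusted p = 9.67e-06). SOX2, a factor of pluripotent and neural progenitor cells, had 180 and 129 counts in ectoderm and likewise 0 in mesoderm, at least 49.6-fold higher (edgeR adjusted p = 3.96e-04). HAND1, a factor of lateral mesoderm and extraembryonic tissue, showed the reverse. It had 0 counts in both ectoderm repeats and 263 and 274 in mesoderm, at least 372-fold higher there (edgeR adjusted p = 1.69e-07). GABRP, a GABA receptor subunit much used as a marker of amnion, had 2 and 0 counts in ectoderm against 2269 and 2355 in mesoderm. Its pooled ratio of 4799 (95% exact interval 1328 to 39636, counting error only) was the largest of any gene named here (edgeR adjusted p = 1.60e-08). The ectoderm repeats were at or near 0 for HAND1 and GABRP, and the mesoderm repeats were at 0 for PAX6 and SOX2.

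**Figure D2:**
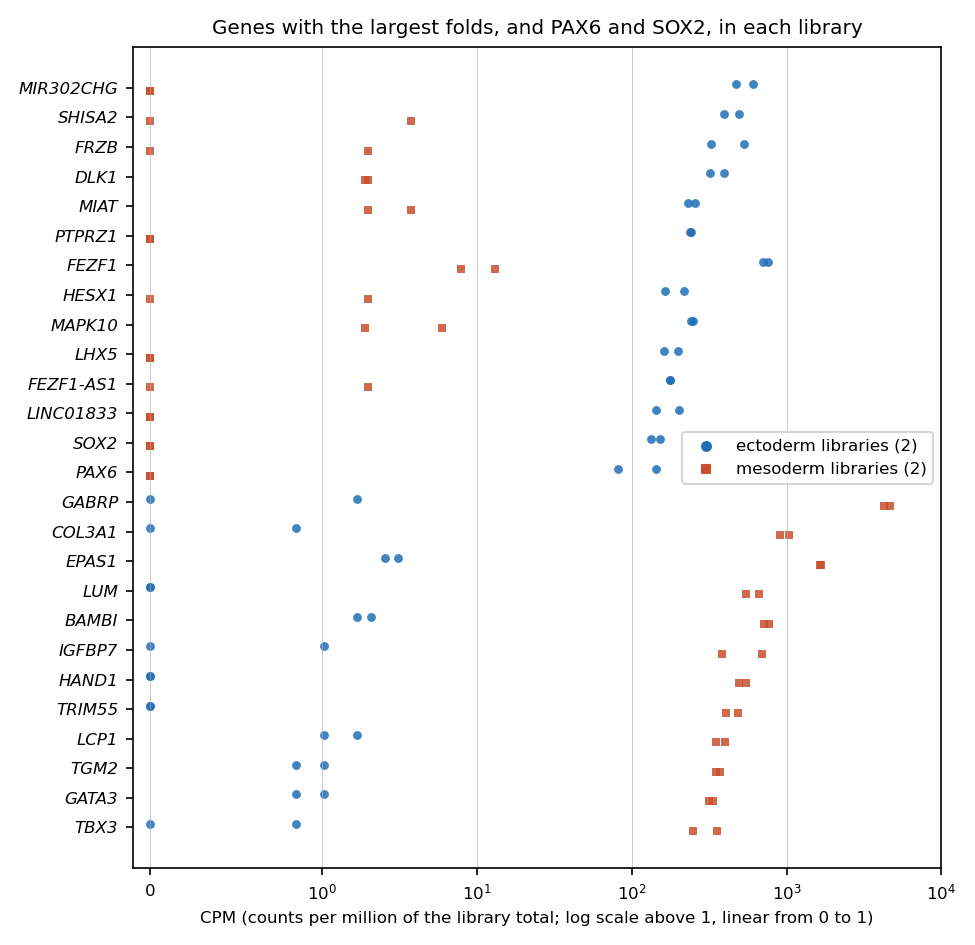
CPM of 26 genes in each of the 4 libraries (horizontal, log scale above 1 and linear from 0 to 1), with ectoderm libraries as blue circles and mesoderm libraries as orange squares. The genes are the 12 with the largest folds in each direction (HAND1 and GABRP among them), PAX6 and SOX2. No gene shown has overlapping groups, which the choice of the 12 in each direction required. The lower group lies between 0 and 13.2 CPM.

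The other genes with the largest folds toward ectoderm were secreted or membrane proteins of signalling pathways, anterior transcription factors and long non-coding RNAs. SHISA2, which holds back WNT and FGF receptors in the cell, had 397 and 496 CPM in ectoderm and 3.77 and 0 CPM in mesoderm. FRZB, a secreted WNT antagonist, had 530 and 327 CPM against 0 and 1.98 CPM. DLK1, a membrane protein related to NOTCH ligands, had 396 and 323 CPM against 1.88 and 1.98 CPM. In each of these the lower ectoderm library lay far above the higher mesoderm library. The pooled ratios were 229 for SHISA2 (95% exact interval 63.1 to 1890), 454 for FRZB (81.3 to 17945) and 188 for DLK1 (51.8 to 1554), and their intervals are wide because mesoderm had 2, 1 and 2 counts in all. PTPRZ1, a receptor phosphatase of neural progenitors and glia, had 281 and 234 counts against 0 and 0, at least 82.7-fold higher in ectoderm. FEZF1, a forebrain repressor, had 890 and 680 counts against 7 and 4, a pooled ratio of 68.8. FEZF1-AS1, which overlaps it on the other strand, had 210 and 172 counts against 0 and 1, and since the use of strand in counting is not stated, reads of the pair may not have been told apart. HESX1, a forebrain and pituitary factor, had 257 and 158 counts against 0 and 1, and LHX5, a forebrain factor, had 235 and 156 against 0 and 0. The kinase MAPK10 (243 and 247 CPM against 1.88 and 5.95 CPM), the non-coding RNA MIAT (229 and 257 CPM against 3.77 and 1.98 CPM) and LINC01833 (202 and 144 CPM against 0 in both) completed the 12. Adjusted p (edgeR) was at most 3.64e-06 for each of the 12. DLK1, LHX5 and LINC01833 had 0 counts in both undifferentiated libraries, whereas MIAT had 20 and 34 there and PTPRZ1 30 and 13.

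Toward mesoderm, the largest folds after GABRP were those of matrix proteins, of regulators of BMP and hypoxia responses and of transcription factors. COL3A1, the fibrillar collagen III chain, had 1 and 0 counts in ectoderm and 549 and 456 in mesoderm, a pooled ratio of 2086 (95% exact interval 374 to 82471). LUM, a proteoglycan of collagen fibrils, had 0 and 0 counts against 291 and 334, at least 432-fold higher in mesoderm. EPAS1, a hypoxia-inducible factor present in endothelium and trophoblast, had 3 and 3 counts against 873 and 842, a ratio of 593. BAMBI, a pseudoreceptor induced by BMP that damps the response, had 2 and 2 counts against 407 and 360, a ratio of 398. In all 4 genes the mesoderm repeats agreed closely and the ectoderm repeats were at a few counts or none. IGFBP7, an insulin-like growth factor binding protein, had 0 and 1.03 CPM against 384 and 693 CPM, the widest relative gap between mesoderm repeats among the 12. The muscle protein gene TRIM55 had 407 and 482 CPM, the actin-bundling LCP1 403 and 349 CPM and the transglutaminase TGM2 350 and 373 CPM in mesoderm, all against at most 1.69 CPM in ectoderm. The transcription factor GATA3 had 337 and 314 CPM and TBX3 249 and 357 CPM, against at most 1.03 CPM in ectoderm. Adjusted p (edgeR) was at most 1.69e-07 for each of these 12 genes, which include HAND1. None of the 12 had more than 17 counts in an undifferentiated library. With DESeq2 in place of edgeR, 2 of the 24 genes lost their call, LHX5 (adjusted p = 0.19) and TRIM55 (adjusted p = 0.073), while their folds kept direction.

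Transcription factors of the anterior neural plate were mostly higher in ectoderm. Of 33 listed, 19 were tested, 15 were higher in ectoderm and 2 in mesoderm, beside 18.3% and 17.5% of all genes. Members such as RAX and LHX5, with 0 counts in every library outside ectoderm, passed the filter on low counts through ectoderm alone. So did FEZF1 and HESX1, with at most 7 counts in any library outside ectoderm. For such members a call toward ectoderm was likely once they were tested. With the pooled count of the lower group set to at least 3, the median log2 fold change of the 19 was 3.84, against 0.02 over all genes. RAX, the eye field factor, had 176 and 133 CPM in ectoderm and 0 in both mesoderm repeats. SIX3, which blocks WNT signals in the forebrain, had 113 and 91.0 CPM and again 0 in both. OTX2, a factor of forebrain, midbrain and epiblast, had 153 and 134 CPM against 0 and 1.98 CPM. Thus 3 eye and forebrain factors were close to absent from the mesoderm reads. ZIC5, SIX6, SP8, SOX21, OTX1 and SOX11 were higher in ectoderm as well, at between 16.1 and 73.7 CPM there. The 2 exceptions were NR2F2, also a factor of mesenchyme (3.39 and 6.20 CPM against 81.0 and 81.4 CPM), and MEIS1, also active in mesoderm (2.54 and 1.03 CPM against 65.9 and 55.6 CPM), both higher in mesoderm. SOX3 and MEIS2 were not called. POU3F2 had no count in the 4 libraries, and SOX1, FEZF2, EMX2 and POU3F3 were not analysed here.

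Genes of neural progenitors showed the same side on balance. Of 30 listed, 24 were tested, 18 were higher in ectoderm and 3 in mesoderm, beside 18.3% and 17.5% of all genes. The median log2 fold change of the list was 1.93. The WNT receptor FZD3, which acts in axon tracts, had 329 and 284 CPM in ectoderm and 15.1 and 13.9 CPM in mesoderm, a log2 fold change of 4.20 ± 0.37 (SE). CNTNAP2, a neuronal adhesion protein, had 307 and 328 CPM against 16.9 and 11.9 CPM (4.25 ± 0.38). N-cadherin, CDH2, had 105 and 115 CPM against 15.1 and 11.9 CPM (2.82 ± 0.38). These adhesion and receptor genes differed by several times the gap between repeats. The 3 members higher in mesoderm were VIM, an intermediate filament gene of progenitors and of mesenchyme (18.6 and 10.3 CPM against 213 and 308 CPM), and the secreted growth factors MDK and PTN, whose log2 fold changes were -1.08 ± 0.30 and -1.06 ± 0.30. LIX1 was called higher in ectoderm by 0.84 on the log2 scale, but at -0.0893 with the GC trend removed, where it was not called. Calls in both directions fell in number when a library of either layer was left out. With DESeq2, 14 members were called higher in ectoderm and 2 in mesoderm, and with the length trend removed, 14 and 1.

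Markers of differentiated neurons were scarce. Of 18 listed, 3 were tested and 1 was higher in ectoderm, beside 18.3% of all genes. MAP2, a dendritic microtubule protein, was higher in ectoderm with 180 and 178 CPM against 3.77 and 9.92 CPM (log2 fold change 4.50 ± 0.46). TUBB3 and STMN2 were not called, DCX had 1 and 0 counts in ectoderm, and NEUROD1 and NEUROG1 were not analysed here. Among neural crest and placode genes, 5 of 15 were tested. Of these, 2 were higher in ectoderm, NGFR among them, and SNAI2, EYA1 and ETS1 in mesoderm, beside 18.3% and 17.5% of all genes. ETS1 had 7 and 8 counts in mesoderm, below the filter on low counts, and was tested through libraries outside the comparison. SOX10 had at most 3 counts in a library.

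Amnion and trophoblast genes were nearly all called higher in mesoderm where they could be tested. Of 32 listed genes, 21 were tested, 20 were higher in mesoderm and none was higher in ectoderm, beside 17.5% and 18.3% of all genes. Members such as WNT6, with 0 counts in every library outside mesoderm, passed the filter on low counts through mesoderm alone. For these a call toward mesoderm was likely once they were tested. The median log2 fold change, with lower groups set to at least 3 counts, was -6.93. Their summed level was 245 and 215 CPM in ectoderm and 11474 and 12319 CPM in mesoderm. ISL1, an early amnion and heart progenitor factor, had 0 and 0 counts in ectoderm and 83 and 93 in mesoderm, at least 122-fold higher. VTCN1, an immune checkpoint protein of trophoblast and amnion, had 2 and 2 counts against 194 and 184, a ratio of 196. TFAP2A, a factor of surface ectoderm and amnion, had 1 and 0 counts against 136 and 166. CGA, the common subunit of the glycoprotein hormones, had 0 and 0 against 29 and 33. The ectoderm repeats were at or near 0 for all 4 genes. WNT6, GATA2, MSX2, HEY1, IGFBP3, ANXA3, KRT7, TP63, VGLL1 and TFAP2C were also higher in mesoderm, with TFAP2C the least so (log2 fold change -1.41 ± 0.39). IGFBP5 was not called, and CDX2, which had 13 and 7 counts in mesoderm and none in ectoderm, did not pass the filter on low counts. ERVFRD-1, the syncytin-2 gene, had 7 and 5 counts in mesoderm and none in ectoderm.

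Genes of lateral, cardiac and extraembryonic mesoderm also lay on the mesoderm side, but several of its defining factors were near 0. Of 26 listed, 13 were tested, 8 were higher in mesoderm and none in ectoderm, beside 17.5% and 18.3% of all genes. Members such as COL3A1 and LUM, with at most 2 counts in any library outside mesoderm, passed the filter on low counts through mesoderm alone. For these a call toward mesoderm was likely once they were tested. The 8 were the collagens COL1A1, COL1A2 and COL3A1, LUM, BMP4, GATA6, and HAND1 and TBX3, both of which are also on the amnion list. COL1A1 had 156 and 212 CPM in ectoderm and 2915 and 3731 CPM in mesoderm, a log2 fold change of -4.36 ± 0.35. GATA6 had 8 and 3 counts in mesoderm and 0 in ectoderm, below the filter on low counts, and was tested through libraries outside the comparison. The cardiac factors GATA4, NKX2-5 and TBX20 had 0, 1 and 2 counts over both mesoderm repeats, and FOXF1, a factor of lateral mesoderm, had 0. HAND2, TBX5, TBX2 and TCF21 were not analysed here. The receptor PDGFRA had 8 and 15 counts in mesoderm against 5 and 1 in ectoderm. Of 17 primitive streak and paraxial genes, 4 were tested (EOMES, MIXL1, LHX1 and GSC). These passed the filter through the endoderm libraries and had at most 1 count in any ectoderm or mesoderm library, so their test says nothing about the layers. None of the ectoderm and mesoderm libraries had more than 10 counts of any listed gene. Their summed level was between 11.4 and 15.1 CPM in the 4 libraries. Of 16 endothelial and blood genes, 4 were tested, 1 was higher in mesoderm and 1 in ectoderm, beside 17.5% and 18.3% of all genes. Both counts were near the background. RUNX1 was higher in mesoderm (5.08 and 2.07 CPM against 41.4 and 63.5 CPM) and TEK higher in ectoderm (43.2 and 51.7 CPM against 26.4 and 11.9 CPM), while KDR, a VEGF receptor, had 1 and 1 counts in mesoderm. TEK lost its call with the replicate number as a block, after thinning, with DESeq2, with the length or GC trend removed, and without ectoderm repeat 1, ectoderm repeat 2 or mesoderm repeat 2. Endoderm genes summed to at most 7.53 CPM in any of the 4 libraries. In bulk RNA, more cells of a type and more RNA per cell cannot be told apart, and whether the amnion list marks other cells beside mesoderm in these cultures was not tested.

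**Figure D3:**
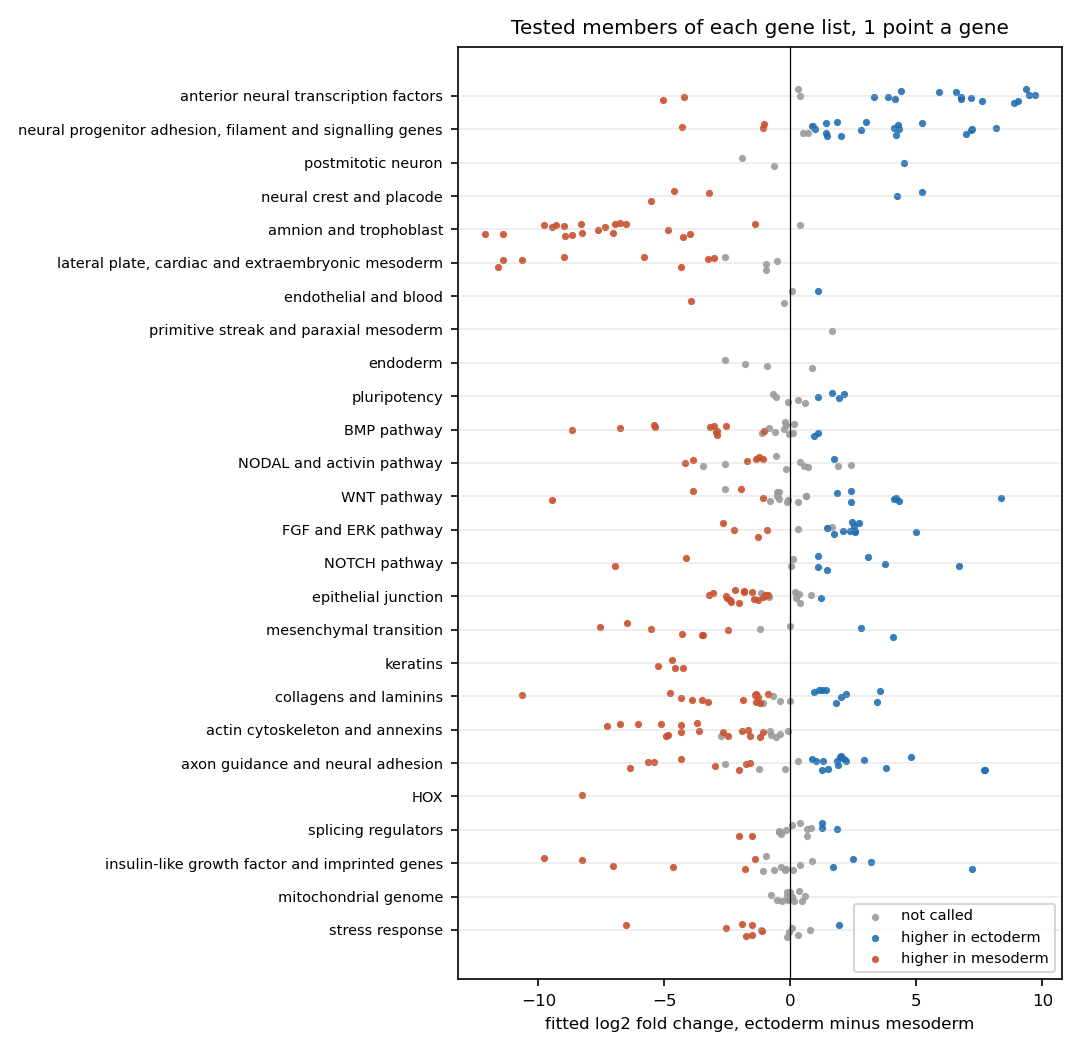
Fitted log2 fold change (ectoderm minus mesoderm, horizontal) of the tested members of 26 gene lists, 1 point a gene, leaving out members with no count in the 4 libraries. Anterior neural factors lie mostly right of 0 and called amnion, keratin and actin genes left of it, while the 15 mitochondrial genes lie around 0.

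Calls among components and targets of the BMP pathway were mostly toward mesoderm, whose medium held BMP4, while the ectoderm medium held an inhibitor of BMP receptors. Of 26 listed, 22 were tested, 11 were higher in mesoderm and 2 in ectoderm, beside 17.5% and 18.3% of all genes. The median log2 fold change of the list was -1.08. The ligand BMP4 itself had 43.2 and 34.1 CPM in ectoderm and 311 and 248 CPM in mesoderm (log2 fold change -3.03 ± 0.36). Among targets, MSX2 had 5.08 and 1.03 CPM against 350 and 304 CPM, a ratio of 100.5. ID1, an inhibitor of helix-loop-helix factors, had 15.2 and 21.7 CPM against 99.8 and 145 CPM (-2.91 ± 0.35), and ID2 had 21.2 and 25.8 CPM against 109 and 202 CPM (-2.91 ± 0.41). ID3, of the same family, was not called at 234 and 233 CPM against 230 and 244 CPM, and ID4 was called with a smaller difference (-1.04 ± 0.34). The targets thus did not move as a block. Antagonists were on the mesoderm side too: NOG had 1 and 0 counts against 15 and 11, CHRD 5 and 3 against 10 and 11, and FST 17 and 11 against 48 and 44. The inhibitory SMAD7 had 0 and 1 counts against 14 and 12. The receptors BMPR1A, BMPR2 and ACVR1 and the mediator SMAD1 were not called. SMAD5 and TWSG1, called higher in ectoderm by 0.92 and 1.11, had -0.17 and -0.10 with the GC trend removed and lost their calls without any 1 of the 4 libraries. Without mesoderm repeat 1, 7 of the 11 calls toward mesoderm were left.

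Of 21 genes of the NODAL and activin pathway, 17 were tested, 6 were higher in mesoderm and 1 in ectoderm. These counts stood beside 17.5% and 18.3% of all genes. SKIL, a feedback repressor of SMAD proteins, had 14.4 and 16.5 CPM in ectoderm and 33.9 and 57.6 CPM in mesoderm (log2 fold change -1.74 ± 0.38). The receptor gene TGFBR1 had 224 and 284 CPM against 69.7 and 65.5 CPM and was higher in ectoderm, where its product was a target of A83-01, but it was not called with the GC trend removed. NODAL, LEFTY1 and LEFTY2, ligands and inhibitors of the pathway, had at most 2 counts in any of the 4 libraries. TGFB1, TGIF1, SMAD3 and ACVR2A were also among the calls toward mesoderm. TGFB1 had 9 and 12 counts in mesoderm, of which 9 was below the filter on low counts, and was tested through libraries outside the comparison. Leaving out any 1 of the 4 libraries left 3 of the 6.

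Of 37 listed WNT pathway genes, 22 were tested, 7 were higher in ectoderm and 4 in mesoderm, beside 18.3% and 17.5% of all genes, so that the count toward mesoderm was near the background. The secreted antagonists FRZB, SFRP1 and SFRP2, the receptors FZD3, FZD5 and FZD7 and the co-receptor LRP6 were on the ectoderm side. SFRP2 had 256 and 186 CPM in ectoderm and 13.2 and 5.95 CPM in mesoderm (log2 fold change 4.31 ± 0.47), and FZD5 had 357 and 375 CPM against 16.9 and 19.8 CPM (4.12 ± 0.55). The ligands WNT6 and WNT11, the antagonist DKK3 and the receptor FZD6 were on the mesoderm side, and WNT6 had 0 counts in both ectoderm repeats against 70 and 69. The pathway's feedback target AXIN2 (10 and 5 counts against 3 and 1) and the mediators CTNNB1, LEF1 and TCF7L2 were not called. With the length trend removed, 7 genes were called on each side.

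Genes of the FGF and ERK pathway were more often called higher in ectoderm than in mesoderm, while bFGF was part of the mesoderm medium. Of 22 listed, 17 were tested, 10 were higher in ectoderm and 4 in mesoderm, beside 18.3% and 17.5% of all genes. The median log2 fold change of the list was 1.91 when lower groups were set to at least 3 counts. FGFR1 had 711 and 1220 CPM in ectoderm and 143 and 143 CPM in mesoderm (log2 fold change 2.57 ± 0.33). The phosphatase DUSP6, a feedback gene of ERK, had 107 and 74.4 CPM against 7.53 and 19.8 CPM (2.54 ± 0.50), and the ETS factors ETV1, ETV4 and ETV5 lay on the same side. SPRY2, also a feedback gene, had 22.9 and 10.3 CPM against 73.4 and 69.5 CPM and was higher in mesoderm (-2.24 ± 0.37), while SPRY1 was higher in ectoderm (2.71 ± 0.56). FLRT3 and the receptors FGFR2 and FGFR3 were the others higher in mesoderm, while FGFR4 was higher in ectoderm like FGFR1. The calls toward mesoderm fell from 4 to 2 without any 1 of the 4 libraries. FGF8, a patterning ligand of the anterior neural ridge, had 15 and 11 counts in ectoderm and none in mesoderm, and did not pass the filter.

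Of 19 NOTCH pathway genes, 10 were tested, 6 were higher in ectoderm and 2 in mesoderm, beside 18.3% and 17.5% of all genes. The count toward mesoderm was near that share. NOTCH1, a receptor, had 81.3 and 102 CPM in ectoderm and 7.53 and 3.97 CPM in mesoderm (log2 fold change 3.75 ± 0.49), and its ligand DLL1 had 59.3 and 53.8 CPM against 3.77 and 7.94 CPM (3.06 ± 0.51). The targets divided. HES1 was higher in ectoderm (1.44 ± 0.45), and HEY1 (1.69 and 2.07 CPM against 213 and 238 CPM) and HEY2 were higher in mesoderm. HEY2 had 9 and 17 counts in mesoderm, of which 9 was below the filter on low counts, and passed with the help of an undifferentiated library. Without mesoderm repeat 1, 3 of the 6 calls toward ectoderm were left.

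Keratins, epithelial junctions and the actin cytoskeleton were higher in mesoderm together with mesenchymal matrix genes. All 4 keratins tested of 9 listed were called higher in mesoderm, beside 17.5% of all genes. KRT7 would not have passed the filter on low counts without the mesoderm libraries, so that its call was likely once it was tested. KRT18 had 153 and 113 CPM in ectoderm and 4227 and 4644 CPM in mesoderm, and KRT8, its filament partner, had 191 and 131 CPM against 3451 and 4013 CPM. Both have many processed copies in the genome, so their counts may hold or lose reads of those. KRT19 had 94.8 and 67.2 CPM against 1369 and 2036 CPM (log2 fold change -4.57 ± 0.37). Of 24 epithelial junction genes, all tested, 16 were higher in mesoderm and 1, OCLN, in ectoderm, beside 17.5% and 18.3% of all genes. The median log2 fold change of the list was -1.37. E-cadherin, CDH1, had 824 and 913 CPM in ectoderm and 1540 and 1711 CPM in mesoderm, a moderate difference of -1.09 ± 0.28. P-cadherin, CDH3, had 269 and 278 CPM against 1350 and 1109 CPM (-2.35 ± 0.30), and the desmosomal gene PKP2 had 109 and 149 CPM against 930 and 1002 CPM (-3.09 ± 0.32). Leaving out a library left 10 of the 16 calls without ectoderm repeat 1, 8 without ectoderm repeat 2 and 10 without mesoderm repeat 2, and OCLN lost its call without ectoderm repeat 2 or either mesoderm repeat.

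Of 16 genes of mesenchymal transition, 11 were tested, 7 were higher in mesoderm and 2, CDH2 and ZEB2, in ectoderm. Over all genes the shares were 17.5% and 18.3%, so that the count toward ectoderm was near the background. Fibronectin, FN1, had 67.7 and 66.2 CPM in ectoderm and 11113 and 10972 CPM in mesoderm, a ratio of 165. TGFBI, a matrix protein induced by TGF-beta, had 13 and 10 counts against 386 and 504, a pooled ratio of 80.3. The repressor SNAI2 had 3 and 0 counts against 42 and 26, while SNAI1 was not called and ZEB1 had 18 and 18 counts in ectoderm and 1 and 1 in mesoderm, below the filter. The cadherins and repressors used to describe the transition therefore lay on both sides. Of 25 actin and annexin genes, 23 were tested, 17 were higher in mesoderm and none in ectoderm, beside 17.5% and 18.3% of all genes. ANXA1 had 3.39 and 4.14 CPM against 499 and 580 CPM, a ratio of 144.5, and ANXA2 81.3 and 68.2 CPM against 1358 and 1354 CPM. ACTC1, the cardiac actin gene, had 5 and 3 counts against 87 and 150, a ratio of 61.5, and the smooth muscle calponin CNN1 had 6 and 5 counts against 47 and 50.

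Of 30 listed collagens and laminins, 26 were tested, 13 were higher in mesoderm and 9 in ectoderm, beside 17.5% and 18.3% of all genes. The fibrillar collagen genes COL1A1, COL1A2, COL3A1, COL5A1 and COL5A2 were on the mesoderm side. COL5A2 had 23.7 and 18.6 CPM in ectoderm and 277 and 294 CPM in mesoderm (log2 fold change -3.92 ± 0.34). Those higher in ectoderm were the basement membrane chains COL4A1, COL4A2, COL4A5 and COL4A6, the laminin chain LAMA1, NID1 and the cartilage and notochord collagens COL2A1, COL9A1 and COL11A1, of which COL2A1 and COL11A1 are fibrillar too. NID1, which links laminin and collagen IV, had 170 and 195 CPM against 18.8 and 9.92 CPM (3.45 ± 0.39), and COL9A1 had 119 and 141 CPM against 7.53 and 11.9 CPM (3.53 ± 0.40). The related NID2 lay on the other side (-1.28 ± 0.29). The count toward ectoderm was 4 with the length trend removed and 5 without mesoderm repeat 2. The count toward mesoderm was 8 without ectoderm repeat 1, 7 without ectoderm repeat 2 and 7 without mesoderm repeat 1.

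Guidance and adhesion genes of axons were called in both directions. Of 40 listed, 28 were tested, 16 were higher in ectoderm and 8 in mesoderm, beside 18.3% and 17.5% of all genes. The Eph receptor EPHA4 had 274 and 308 CPM in ectoderm and 22.6 and 13.9 CPM in mesoderm (log2 fold change 3.79 ± 0.38), and EPHA7 had 49 and 50 counts against 0 and 0, at least 15.9-fold higher. Of the SLIT ligands and their ROBO receptors, the receptors ROBO1 (249 and 312 CPM against 50.8 and 61.5 CPM) and ROBO2 were higher in ectoderm. The ligands were on the other side: SLIT3 had 2.54 and 10.3 CPM against 279 and 286 CPM (-5.66 ± 0.44), and SLIT2 had 10.2 and 21.7 CPM against 97.9 and 123 CPM (-2.99 ± 0.46). The semaphorin receptor NRP1, which also binds VEGF, had 2 and 0 counts against 49 and 38. The count toward ectoderm was 10 with the length trend removed and 10 without either mesoderm repeat, and the count toward mesoderm was 5 without mesoderm repeat 1.

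Of 12 listed pluripotency genes, 10 were tested and 4 were higher in ectoderm, beside 18.3% of all genes, and none was higher in mesoderm. LIN28A, an RNA-binding protein that blocks let-7 maturation, had 879 and 1280 CPM in ectoderm and 228 and 204 CPM in mesoderm (log2 fold change 2.13 ± 0.31). DPPA4 had 231 and 277 CPM against 62.1 and 53.6 CPM, and the DNA methyltransferase DNMT3B had 204 and 195 CPM against 60.3 and 51.6 CPM. TERF1 was called with a smaller difference (1.09 ± 0.38). The core factors were at low counts in both layers: POU5F1 had 5 and 16 counts against 1 and 5, and NANOG 3 and 0 against 0 and 1, although both have processed copies that may share reads.

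Transcripts were tested in the same way. Of 12158 transcripts tested, 4140 (34.1%) were called, 2128 higher in ectoderm and 2012 in mesoderm. The choice between transcripts of a gene was tested separately from the level of the gene. Of 2601 genes with at least 2 tested transcripts, 157 (6.04%) had an adjusted p under 0.05 in edgeR's test of transcript choice. Of these, 126 had at least 30 counts in each of the 4 libraries, and 59 of the 126 were also called at the gene level. Over all genes tested, 35.8% were called at the gene level, and 42.7% of those tested with a minimum count of 30. In 57 of the 126 (45.2%) the first exons of the transcript most favoured in ectoderm and of that most favoured in mesoderm did not overlap, and in 14 (11.1%) the last exons did not. Among the 1517 other tested genes of that depth the shares were 26.4% and 14.8%. The ectoderm-favoured transcript was the longer in 57.1% of the 126 genes and in 54.5% of the others, beside the longer transcripts to which the ectoderm reads were assigned, whose part in the choice was not tested.

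Of the 8 genes with the largest difference in share, 7 had different first exons. PTN, a heparin-binding growth factor gene, had 52 of 61 and 40 of 50 of its counts in ectoderm in a transcript starting at chr7:137343733 on the minus strand, against 10 of 50 and 12 of 48 in mesoderm. A transcript starting at chr7:137268637 instead held 1.64% and 0% in ectoderm and 50.0% and 60.4% in mesoderm (edgeR adjusted p = 6.89e-06). These first exons, of 295 and 314 nt, are outside the coding part where GENCODE 29 annotates them. For both forms, the repeats of one layer lay apart from those of the other, which the choice of genes required of the leading form. The transcript of SQSTM1, the autophagy receptor p62, that starts at the annotated first exon chr5:179820905-179821141 held 90.7% and 86.5% of mesoderm counts and 42.9% and 40.0% of ectoderm counts. The ectoderm-favoured form, which begins upstream at chr5:179806975, held 47.9% and 43.3% in ectoderm and 3.88% and 7.14% in mesoderm. In MAGED2, 1 transcript with the first exon chrX:54808371-54808433 held 52.7% and 50.3% of ectoderm counts and 16.9% and 16.2% of mesoderm counts, and another with the same start held 18.3% and 18.9% against 7.55% and 7.44%. The exon chrX:54807732-54807802 begins the form holding 75.5% and 76.4% in mesoderm, against 177 of 611 and 108 of 350 counts in ectoderm. DOK4, an adaptor of receptor tyrosine kinases, had its 9-exon form at 24.5% and 39.6% in ectoderm and 89.2% and 93.3% in mesoderm. The form of DNMBP, a scaffold of dynamin, with 17 exons held 24.7% and 22.8% in ectoderm and 74.7% and 68.4% in mesoderm, and the 14-exon form that starts inside the gene held 39.5% and 37.8% against 13.9% and 13.9%. In ANKS1A the direction was opposite, as the full-length form with 24 exons held 58.9% and 60.9% in ectoderm and 22.4% and 13.2% in mesoderm, and a 15-exon form starting inside the gene held 7.14% and 10.9% against 52.0% and 72.5%. Longer forms were therefore favoured in mesoderm for DNMBP and in ectoderm for ANKS1A. DNMBP lost its call without mesoderm repeat 1 (adjusted p = 0.063) and MAGED2 without mesoderm repeat 2 (adjusted p = 0.051).

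SLC3A2, the heavy chain of CD98 amino acid transporters, differed in its first exon. The 12-exon form that starts at chr11:62856102 held 43.8% and 46.5% in ectoderm and 13.0% and 13.1% in mesoderm. The 9-exon form that starts at chr11:62880894 held 31.0% and 27.7% against 77.3% and 78.4% (edgeR adjusted p = 6.89e-06). The repeats of each layer lay within 4 percentage points of each other. The layers did not overlap, which the choice of genes required of the leading form.

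CSNK1D, casein kinase 1 delta, a regulator of the circadian clock and of WNT signalling, had the largest difference of the 126 genes and shared its first exon between forms. The 9-exon form held 82.6% and 78.0% of its counts in ectoderm and 16.5% and 24.5% in mesoderm. The 10-exon form held 13.0% and 13.8% against 77.7% and 74.5%, so that the layers exchanged their main form (edgeR adjusted p = 2.97e-05). The gene had between 103 and 123 counts in each library. The forms differ by 1 internal exon of 64 nt (chr17:82245976-82246039, minus strand), of which the opening 30 nt are coding in GENCODE 29 and the rest is not.
CSNK1D coding bases of the extra exon: aatagcattcctttcgaacaccacggcaag

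A pair of mutually exclusive exons was found in DNM2, dynamin 2, the GTPase that pinches off endocytic vesicles. DNM2 ranked 10 by the size of its share difference and was chosen after its values were seen. Of its counts in ectoderm, 67.1% and 60.7% lay in the transcript with one exon (chr19:10797380-10797518) and 14.5% and 15.5% in the otherwise identical transcript with the other (chr19:10796061-10796199). In mesoderm the shares were 25.0% and 30.3% for the ectoderm-favoured and 58.1% and 56.6% for the mesoderm-favoured transcript, while the level of the gene was not called different (log2 fold change -0.24 ± 0.43). Both exons are 139 nt, coding and on the plus strand, and they carry the same base at 97 positions. The 42 that differ are in capitals.
DNM2 exon favoured in ectoderm: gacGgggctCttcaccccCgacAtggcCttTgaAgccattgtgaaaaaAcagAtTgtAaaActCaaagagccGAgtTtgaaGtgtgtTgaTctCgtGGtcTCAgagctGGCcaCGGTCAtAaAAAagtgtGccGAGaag
DNM2 exon favoured in mesoderm: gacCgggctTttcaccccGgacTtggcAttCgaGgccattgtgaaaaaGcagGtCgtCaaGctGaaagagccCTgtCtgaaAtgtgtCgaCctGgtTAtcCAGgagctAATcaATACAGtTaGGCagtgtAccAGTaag
The edgeR adjusted p of DNM2 was 0.019 and rose to between 0.19 and 0.38 without any 1 of the 4 libraries, where the difference in share of the mesoderm-favoured transcript stayed between -43.1 and -41.6 percentage points.

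**Figure D4:**
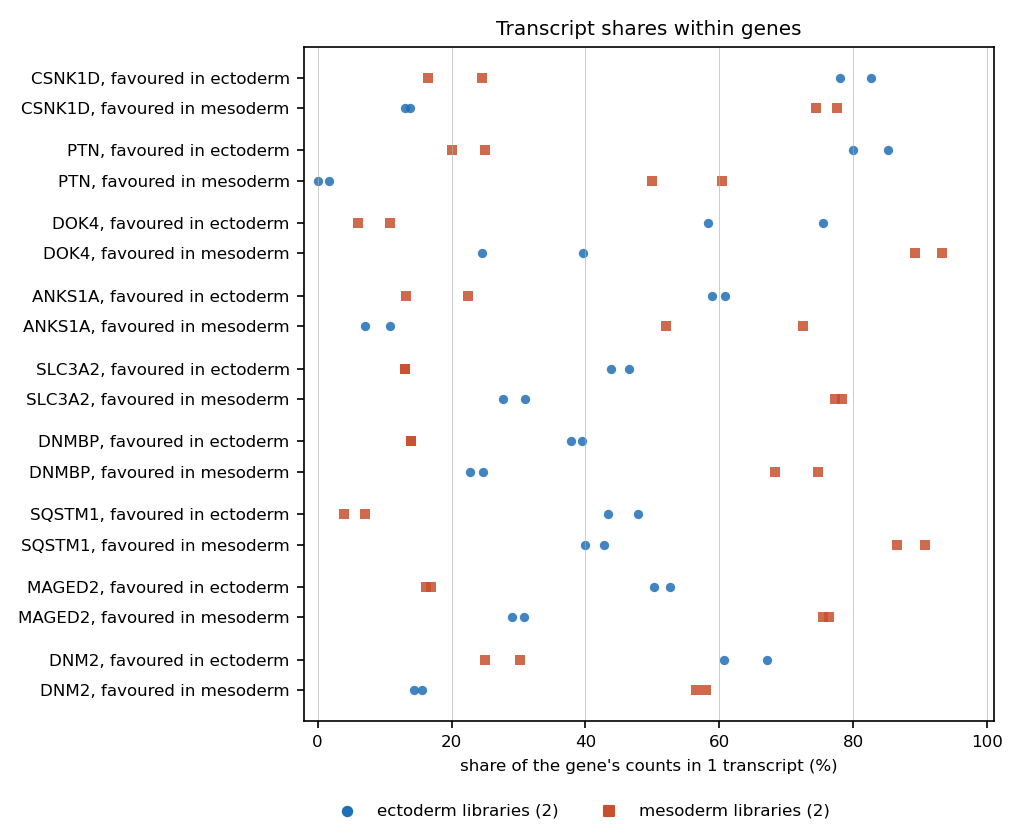
Share of a gene's counts (%, horizontal) in the transcript most favoured in each layer, for the 8 genes with the largest difference and DNM2, with ectoderm libraries as blue circles and mesoderm libraries as orange squares. In each of the 18 transcripts shown the repeats of 1 layer lie apart from those of the other. The choice of genes required this of the leading transcript of each. CSNK1D exchanges its main form.

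Of 24 listed genes that regulate splicing, 14 were tested, 3 were higher in ectoderm and 2 in mesoderm, shares near the 18.3% and 17.5% of all genes. ESRP2, a splicing factor of epithelia, had 32.2 and 27.9 CPM in ectoderm and 109 and 109 CPM in mesoderm (log2 fold change -2.04 ± 0.43), and RBM47 was higher in mesoderm too. ESRP2 lost its call without ectoderm repeat 2, and RBM47 without either ectoderm repeat or mesoderm repeat 2. PTBP2 and NOVA1, factors of neurons, and QKI were higher in ectoderm, by between 1.26 and 1.85 on the log2 scale, and lost their calls with DESeq2, with the length or GC trend removed and without ectoderm repeat 2 or either mesoderm repeat, NOVA1 also without ectoderm repeat 1. ESRP1, RBFOX2 and PTBP1 were not called.

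**Figure D5:**
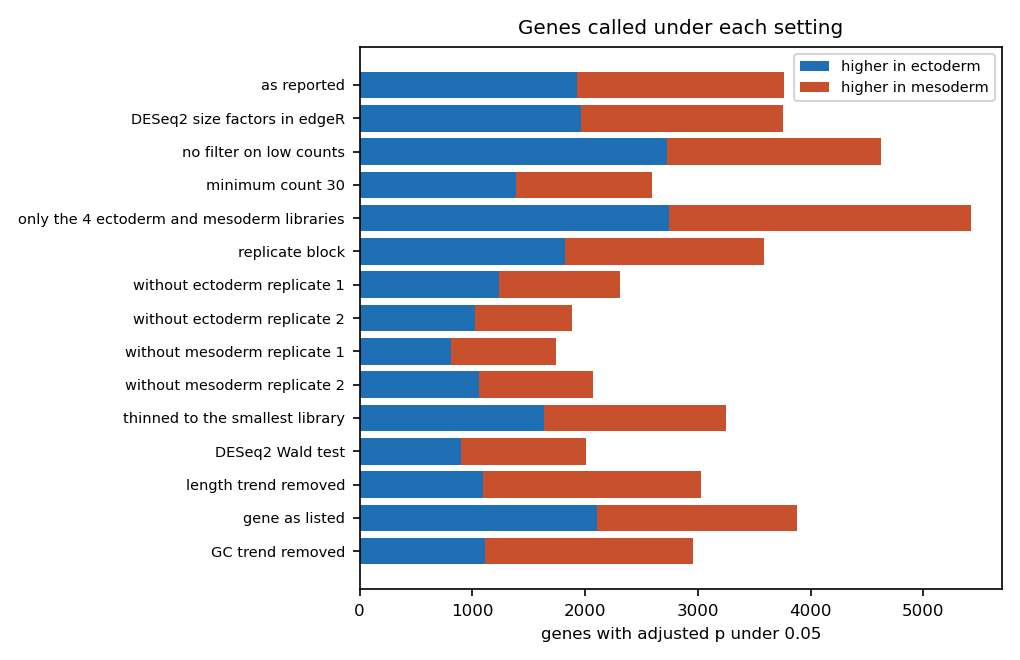
Genes with an adjusted p under 0.05 under each setting (horizontal bars from 0), split into genes higher in ectoderm (blue) and higher in mesoderm (orange). The bars range from 1740 genes without mesoderm repeat 1 to 5425 with only the 4 ectoderm and mesoderm libraries in the fit, and the ectoderm part is the smaller one with the length or GC trend removed, with DESeq2 and without mesoderm repeat 1.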

How the data were processed

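PolyA RNA was read with PacBio long reads (Sequel II). Per the submitters' processing notes minimap2, StringTie and GRCh38 were used, while the versions, the way reads were counted and the use of strand are not given in the sources used here. The deposited table holds the authors' counts of reads per assembled transcript, all whole numbers. The deposited endoderm columns were entered under the unit expected counts, but their values are whole as well and were used as they stand. Of 96614 transcripts, 85024 carry a gene name and were summed by gene.

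Genes were tested with edgeR 4.0.16 (R 4.3.3), with TMM scaling, a minimum count of 10 (filterByExpr) and the quasi-likelihood test over all 8 libraries (contrast ectoderm minus mesoderm, Benjamini-Hochberg adjusted p under 0.05). Transcripts were tested the same way and transcript choice with edgeR's diffSpliceDGE. CPM is relative to the library total. Ratios of pooled CPM with 1 to 3 counts in the lower group carry 95% exact intervals, which, like the floor of 3 counts, cover counting error only. DESeq2 1.42.0 was an alternative, and values were handled with pandas 2.3.3, scipy 1.17.1 and numpy 2.4.6. On simulated data with 200 genes changed 4-fold, 83% were recovered and 9.29% of the calls were false, so that the threshold of 0.05 was exceeded. For transcripts, 75% were recovered and 6.83% of the calls were false, and for transcript choice, with 1910 genes, 100% and 6.10%.

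The gene lists, markers and transcripts were chosen with earlier results of these data known. Named genes were the 4 markers, the 12 with the largest fold in each direction among called genes whose higher group reached 20 CPM in each library without overlap, up to 5 members of each list with the smallest adjusted p, and the 8 genes with the largest share difference and at least 30 counts in each of the 4 libraries. Other members of the lists were named after their values were seen. Alternatives were other scaling, filters, libraries in the fit, a replicate block, thinning, removal of a length or GC trend, DESeq2 and leaving out each library. Some genes and sequences are not reported here.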

Additional observations from a re-analysis of the deposited data

How the results depend on the processing

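Each layer had 2 repeats. With only 1 library left in a layer, whose spread is then taken from the other groups, between 1740 and 2307 genes were called (810 to 1233 higher in ectoderm and 864 to 1074 in mesoderm), between 1759 and 2633 transcripts, and between 37 and 46 genes for transcript choice. DESeq2 called 2011 genes (899 higher in ectoderm and 1112 in mesoderm) and 1782 transcripts. A minimum count of 30 left 1203 genes higher in mesoderm, 2062 transcripts and 73 genes for transcript choice. With only the 4 ectoderm and mesoderm libraries in the fit, 6312 transcripts and 382 genes for transcript choice were called. Transcript choice gave 101 genes after thinning to the smallest library, 74 with Simes' method and 99 with only reference-matching transcripts. Genes higher in ectoderm numbered 1093 with the length trend removed and 1109 with the GC trend removed, an alternative chosen after seeing the data, and in the latter LIX1 (-0.0893), SMAD5 (-0.17) and TWSG1 (-0.10) changed sign without being called. The cause was not tested. Deviations of same-numbered ectoderm and mesoderm repeats had a correlation of 0.078. The labels do not say whether same-numbered repeats were made together, and this value does not settle it. A replicate block gave 3586 genes, 3731 transcripts and 125 genes for transcript choice, of which 3539 genes were also called without it.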

Other observations

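Genes of insulin-like growth factor signalling and imprinted genes were called in both directions. Of 22 listed, 19 were tested, 6 were higher in mesoderm and 4 in ectoderm, beside 17.5% and 18.3% of all genes. The count toward ectoderm was near that share. H19, an imprinted non-coding RNA, had 0 and 0 counts in ectoderm and 38 and 24 in mesoderm, at least 42.9-fold higher. Its neighbour IGF2, a growth factor, had 2 and 1 counts against 17 and 20, a pooled ratio of 25.6 (95% exact interval 8.11 to 130). MEG3, the imprinted non-coding RNA at the DLK1 locus, had 59.3 and 78.6 CPM in ectoderm against 16.9 and 19.8 CPM in mesoderm, and NNAT, an imprinted membrane protein of neural tissue, had 209 and 178 CPM against 18.8 and 17.9 CPM. Thus members of the H19 locus lay on the mesoderm side and those of the DLK1 locus on the ectoderm side. H19 lost its call with DESeq2.

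Of 18 stress response genes, 14 were tested, 7 were higher in mesoderm and 1 in ectoderm, beside 17.5% and 18.3% of all genes. JUN, an immediate early gene, had 0 and 3 counts in ectoderm and 57 and 79 in mesoderm, a ratio of 94.1 (95% exact interval 31.5 to 462). CDKN1A, a cell cycle inhibitor and p53 target, had 190 and 148 CPM in ectoderm against 35.8 and 41.7 CPM in mesoderm. Without ectoderm repeat 2 or mesoderm repeat 1, 3 of the 7 calls toward mesoderm were left. Among 23 HOX genes, HOXB2 was the 1 tested, with 0 and 0 counts in ectoderm and 31 and 31 in mesoderm.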
